A study of Mus musculus with 2 samples.

Results

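The Polycomb group comprises the repressive chromatin complexes PRC2, PRC1 and PR-DUB, and 35 of its genes were followed here in mouse gastrocnemius muscle, among 34745 genes in the count table. The members were fixed as a list of symbols covering the PRC2 core and its accessory subunits, canonical and variant PRC1, and PR-DUB. The list was chosen by the count ratio of Phc3 between the libraries, so that ratio is given as a description and supports nothing else. All 35 symbols matched a gene, and all 35 had counts in both libraries and reached the minimum of 20 summed counts used for comparison, as did 12662 genes in all.

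PRC2 places methyl groups on lysine H3K27 through its catalytic subunit EZH1 or EZH2, with EED, SUZ12 and a histone-binding RBBP protein completing the core. PRC1 ubiquitinates H2AK119 through RING1 or RNF2 paired with a PCGF protein. In canonical PRC1 a CBX protein reads methylated H3K27 and a polyhomeotic protein (PHC1, PHC2 or PHC3) links complexes together through its SAM domain, while variant PRC1 carries RYBP or YAF2 in place of CBX. PR-DUB, built from BAP1 and an ASXL protein, removes the ubiquitin again. In muscle, EZH2 is known from proliferating myoblasts and EZH1 from differentiated fibres.

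RNA sequencing covered 2 libraries of total RNA from the gastrocnemius of C57BL/6 mice aged 8 weeks. The flox/flox library came from mice whose Cipc gene is flanked by loxP sites, and the scKO library from CIPC-scko mice, read from the series title as a deletion in satellite cells, which are muscle stem cells. The Cre driver, the time of deletion and any pooling of animals are not given in the sources used here, and the title names mdx mice, a dystrophy model, whereas the sample labels do not. With 1 library per genotype there was no replicate check and no test: differences below are between these libraries, not the genotypes. Intervals in brackets are exact 95% intervals that reflect counting alone, so variation among animals and PCR duplication would widen them.

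The libraries held 14727219 (flox/flox) and 13842100 (scKO) counts, with 25.7% on mitochondrially encoded genes in each. Cipc, an inhibitor of CLOCK and BMAL1, had 658 flox/flox counts against 111 scKO counts, 5.72-fold lower. Myofibre markers were abundant, with 10 of them summing to 143456 and 132064 counts per 1000000 scaled counts (CPM). Their log2 ratios (scKO over flox/flox) ran from −0.28 to 0.27, with a median of −0.10. At such counts intervals are narrow (for Myh2 −0.04 to −0.004), and 9 of 10 lay below 0 and 1 above (7 and 2 with total-count scaling). Over all tested genes 12.3% of intervals lay below 0 and 12.8% above. Of 10 satellite cell markers, 1 had an interval below 0 and 9 included it. Fibro-adipogenic markers summed to 553 and 449 CPM, with 5 of 8 intervals below 0, and erythroid markers to 146 and 112 CPM, with 5 of 5 below. Endothelial markers summed to 261 and 302 CPM, with 3 of 8 above (5 with total-count scaling). Lymphocyte markers summed to 56.5 and 125 CPM, nearly all of it Ighm, the immunoglobulin mu chain gene, with 772 and 1717 counts (2-fold higher). Of their other 6, 1 reached 20 summed counts, Ptprc, with 39 and 34. The part of these cell types in the Polycomb values was not tested, and in whole muscle fewer cells of a type cannot be told apart from less RNA per cell.

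The region before the transcription start is shown for the member on which the list turns, Phc3, and for its paralog Phc2, because both hold the E-box CACGTG, the motif that CLOCK and BMAL1 are known to bind. Sequences are the 250 bases before an annotated start (RefSeq, GRCm38.p6), 5′ to 3′ on the strand of the gene, with the E-box in capitals. Phc3 has 1 promoter entry and Phc2 has 3, of which only the one shown holds the motif. Phc3 lies on the minus strand at chr3:30969416-30969665 and Phc2 on the plus strand at chr4:128654452-128654701.
Phc3: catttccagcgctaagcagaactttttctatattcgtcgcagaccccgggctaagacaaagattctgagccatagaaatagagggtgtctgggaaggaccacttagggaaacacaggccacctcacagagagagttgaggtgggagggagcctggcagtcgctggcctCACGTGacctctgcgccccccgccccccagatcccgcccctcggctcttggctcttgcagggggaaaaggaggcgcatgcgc
Phc2: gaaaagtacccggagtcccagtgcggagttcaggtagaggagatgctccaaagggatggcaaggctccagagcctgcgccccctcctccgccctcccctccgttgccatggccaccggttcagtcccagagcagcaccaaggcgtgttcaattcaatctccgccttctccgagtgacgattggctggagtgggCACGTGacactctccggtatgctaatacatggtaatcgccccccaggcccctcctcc

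In the Phc3 sequence the E-box begins 82 bases before the start, and in the Phc2 sequence 57 bases before it. The motif reads alike on both strands, so 1 search covered both. Promoter entries matched 31 of the 35 members, with 44 promoters (Cbx2, Pcgf1, Rybp and Yaf2 had none). Of the 31, 9 held CACGTG in at least 1 promoter (29.0%), against 6.86% of all 27025 genes in the promoter table. Per promoter the shares were 20.5% and 6.02%. All members reached the count minimum, which was not asked of the other genes in that table. Member promoters were richer in CpG, with a median of 20.5 CpG against 6 over all promoters. Among promoters with at least 10 CpG, the motif stood in 8 of 36 member promoters (22.2%) and in 9.37% of all 12417. Of the 9 members with the motif, Phc3 and Cbx6 had log2 ratio intervals (scKO over flox/flox) wholly below 0, as did 12.3% of all tested genes, while 12.8% lay above and 25.1% excluded 0 either way. Those of Rbbp4, Pcgf2, Bmi1, Cbx8, Phc2, Bcorl1 and Bap1 included 0. The list was chosen for Phc3, so nothing is read from its place in this tally. Cbx6 was the only other motif member with an interval below 0. The match is a description of letters and says nothing of binding.

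Phc3 had 383 flox/flox counts against 54 scKO counts. Scaled for library size by the TMM method, its level was 26.4 CPM (23.8 to 29.1) in the control and 3.85 CPM (2.89 to 5.02) in the scKO library. The scKO level was thus 6.85-fold lower (5.14 to 9.28), a log2 ratio of −2.76 (−3.21 to −2.36). Its ratio was the 19th lowest of the 12662 tested genes. It was the 7th lowest of the 8243 genes that reached 100 counts in 1 library or both, of which 0.728% were 2-fold lower. Phc3 reached 100 counts in the flox/flox library only. As the list was chosen by this ratio, both ranks only describe it and nothing is read from them. For a gene to be called 2-fold apart, its scaled counts had to differ 2-fold or more with an interval that excluded equality. Over all tested genes 1.91% were 2-fold lower and 1.49% 2-fold higher by this rule (3.40% together), and of the 35 members 1 was lower, Phc3, and none higher. The list was chosen for that gene, so nothing is read from this count.

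**Figure D1:**
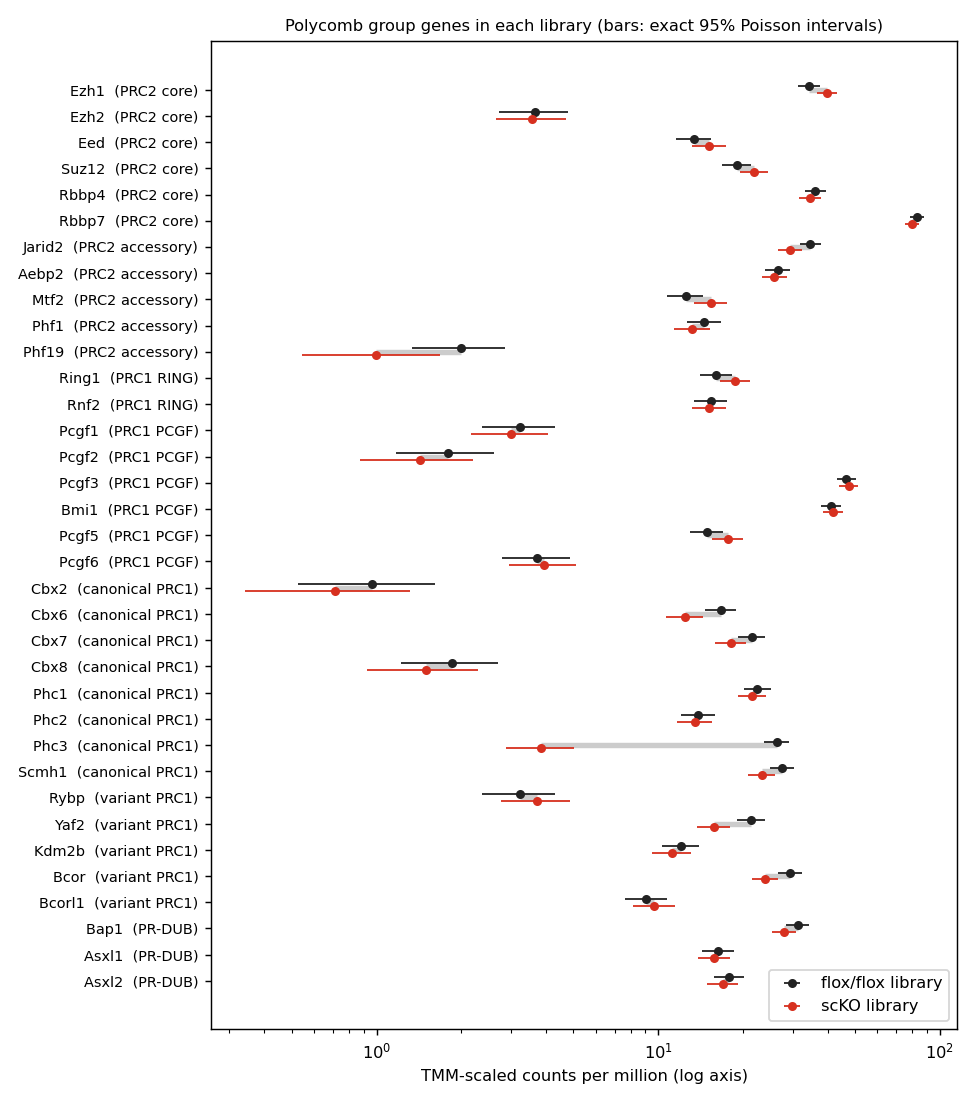
Level of each of the 35 Polycomb group genes in the flox/flox (black) and scKO (red) library, in TMM-scaled CPM on a log axis, with the role of each gene in brackets. Points are single libraries and bars are exact 95% Poisson intervals of the count. For Phc3 the points lie at 26.4 and 3.85 CPM.

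The gene Phc3 (ENSMUSG00000037652) spans chromosome 3, 30899371 to 30969415, on the minus strand of GRCm38, with 10 transcripts and 17485 bp of merged exons in GENCODE M21. None of its exon bases is shared with an exon of another annotated gene, so reads of an overlapping gene do not enter the count by that annotation. The counts cover the whole gene and do not show which transcripts or exons held the remaining reads. Of 5 tested genes within 500000 bp, 4 had intervals that include 0. The nearest were Prkci, with 70 and 83 counts, and Sec62, with 966 and 949. The exception was Skil, which encodes the SKI-like transcriptional corepressor SnoN and begins 125642 bp from Phc3: it had 224 flox/flox counts against 43 scKO counts (log2 ratio −2.32, −2.84 to −1.85).

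The paralogs of Phc3 did not share its difference. Phc1 had 327 flox/flox counts against 302 scKO counts (log2 ratio −0.06, −0.29 to 0.17), and Phc2 had 202 and 189 (−0.04, −0.34 to 0.25). Both intervals include 0 and leave out a 1.5-fold change either way. Phc1 and Phc2 together had 529 and 491 counts (−0.06, −0.24 to 0.12). With Phc3 included, the sum of the family was 912 and 545 counts (−0.69, −0.85 to −0.54), a difference that comes from Phc3 itself.

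Shares within the family do not depend on the scaling of the libraries. Phc3 made up 42.0% of the family counts in flox/flox (38.8% to 45.3%) and 9.91% in scKO (7.53% to 12.7%). The share of Phc1 stood at 35.9% and 55.4%, and that of Phc2 at 22.1% and 34.7%. Phc3 is a long transcript, which raises its share of counts: of the deposited FPKM values, which are per length, it took 25.8% and 5.02%. Per kilobase of merged exons the shares were 19.5% and 3.56%. On all these scales Phc1 ranked first of the family in scKO and Phc3 last.

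**Figure D2:**
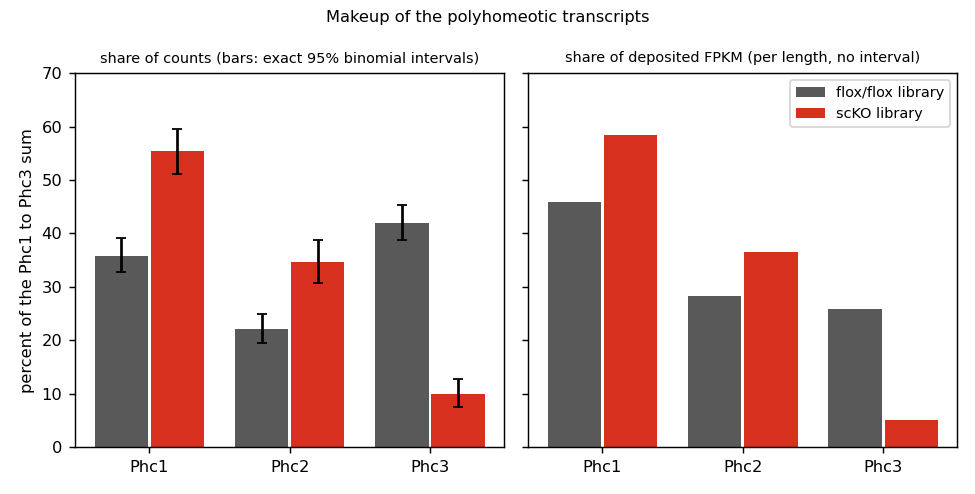
Share of Phc1, Phc2 and Phc3 in their sum, in percent, for the flox/flox (grey) and scKO (red) library. On the left are shares of counts with exact 95% binomial intervals, and on the right shares of the deposited FPKM, where Phc3 goes from 25.8% to 5.02%.

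The remaining members of canonical PRC1 differed far less. CBX proteins bind methylated H3K27, and Cbx6 had 243 flox/flox counts against 174 scKO counts (log2 ratio −0.43, −0.72 to −0.14). Cbx7 had 312 and 254 (−0.25, −0.49 to −0.002). Scmh1, which encodes a PRC1-associated protein with MBT repeats, had 400 and 327 (−0.24, −0.45 to −0.03). These 3 intervals lay below 0 with TMM. With total-count scaling that held for Cbx6 (−0.39, −0.68 to −0.11), while those of Cbx7 (−0.21, −0.45 to 0.04) and Scmh1 (−0.20, −0.42 to 0.01) included 0. Cbx2, with 14 and 10 counts, and Cbx8, with 27 and 21, were too few to tell a 2-fold fall from none: their intervals ran from −1.77 to 0.84 and from −1.21 to 0.57. All 8 canonical PRC1 members, Phc3 included, had log2 ratios below 0 under TMM, total-count and DESeq2 scaling. With TMM 6280 of the 12662 tested genes also did. Some of the 8 lay close to 0, such as Phc1 at −0.03 and Phc2 at −0.007 with total-count scaling. How many intervals lay below 0 depended on the scaling. With TMM and DESeq2 scaling 4 of the 8 did, Phc3 among them, and with total-count scaling 2 did, Phc3 and Cbx6, beside 12.3% (TMM) and 9.70% (total count) of all tested genes. The list was chosen for Phc3, which leaves Cbx6 as the other canonical PRC1 member whose interval lay below 0 under each of these scalings.

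The catalytic and PCGF subunits of PRC1 had intervals that include 0 in each of 8 genes with TMM, and in 6 with total-count scaling. Most genes did: with TMM the intervals of 9480 of the 12662 tested genes included 0. Of the E3 ligase genes, Ring1 had 233 and 263 counts (log2 ratio 0.23, −0.03 to 0.49) and Rnf2 had 224 and 213 (−0.02, −0.30 to 0.26). Bmi1, the PCGF protein of canonical complexes best known for repressing the Ink4a locus, had 596 and 587 counts (0.03, −0.14 to 0.20). Pcgf3 had 678 and 666 (0.03, −0.13 to 0.18) and Pcgf5, its close relative in variant PRC1, 217 and 248 (0.24, −0.02 to 0.51). With total-count scaling the intervals of Ring1 (0.26, 0.004 to 0.52) and Pcgf5 (0.28, 0.01 to 0.55) lay just above 0. The lowest counts were those of Pcgf2, at 26 and 20, Pcgf1, at 47 and 42, and Pcgf6, at 54 and 55. As a family, PCGF genes held 1618 counts in each library.

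In variant PRC1, Yaf2 and Bcor were lower in scKO. Yaf2 had 311 flox/flox counts against 221 scKO counts (log2 ratio −0.44, −0.70 to −0.19), while its paralog Rybp had 47 and 52 (0.20, −0.40 to 0.80). Yaf2 held 86.9% of the counts of this pair in flox/flox (82.9% to 90.2%) and 81.0% in scKO (75.8% to 85.4%). These share intervals overlap. Bcor, a corepressor that joins PCGF1 complexes, had 427 and 337 counts (−0.29, −0.50 to −0.08). Its paralog Bcorl1 had 132 and 136 (0.09, −0.26 to 0.45), and Kdm2b, which recruits PRC1 to unmethylated CpG islands, 175 and 157 (−0.11, −0.43 to 0.21).

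In the PRC2 core, Ezh1 was slightly higher and the other 5 genes had intervals that include 0 with TMM. Among all 12662 tested genes 9480 intervals included 0. Ezh1 had 500 flox/flox counts against 558 scKO counts (log2 ratio 0.21, 0.03 to 0.39), and Ezh2 had 53 and 50 (−0.03, −0.62 to 0.55). Ezh1 made up 90.4% of their summed counts in flox/flox (87.7% to 92.7%) and 91.8% in scKO (89.3% to 93.8%), so Ezh1 was the main methyltransferase transcript of PRC2 in both libraries. Per length, its share of the FPKM was 88.5% and 90.1%. Suz12 had 276 and 308 counts (0.21, −0.03 to 0.45), with an interval just above 0 under total-count scaling (0.009 to 0.49), and Eed 195 and 213 (0.18, −0.11 to 0.47). The histone chaperone genes Rbbp7, with 1203 and 1119 counts, and Rbbp4, with 526 and 485, serve other complexes too and had ratios of −0.05 and −0.07.

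Accessory subunits steer PRC2 to chromatin, and they went in both directions. Jarid2 had 505 flox/flox counts against 412 scKO counts (log2 ratio −0.24, −0.43 to −0.05), and Aebp2, found with it in the same form of PRC2, had 386 and 363 (−0.04, −0.25 to 0.17). Of the Polycomb-like genes, which form the alternative PRC2, Mtf2 had 182 and 216 counts (0.30, 0.007 to 0.59) and Phf1 had 212 and 185 (−0.15, −0.44 to 0.15). Phf19 had 29 and 14 (−0.97, −2.03 to −0.03). Its ratio lay just short of 2-fold lower, and it passed that limit with DESeq2 size factors, which made 2 members 2-fold lower. With total-count scaling its interval included 0 (−0.94, −2.00 to 0.005), and with DESeq2 scaling that of Mtf2 did (0.29, −0.003 to 0.58).

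PR-DUB showed no difference beyond counting error. The deubiquitinase gene Bap1 had 455 flox/flox counts against 393 scKO counts (log2 ratio −0.16, −0.36 to 0.04). Its cofactor genes Asxl1, with 237 and 222 counts (−0.04, −0.31 to 0.23), and Asxl2, with 260 and 238 (−0.08, −0.34 to 0.18), also had intervals that include 0. The same held for 9480 of the 12662 tested genes.

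**Figure D3:**
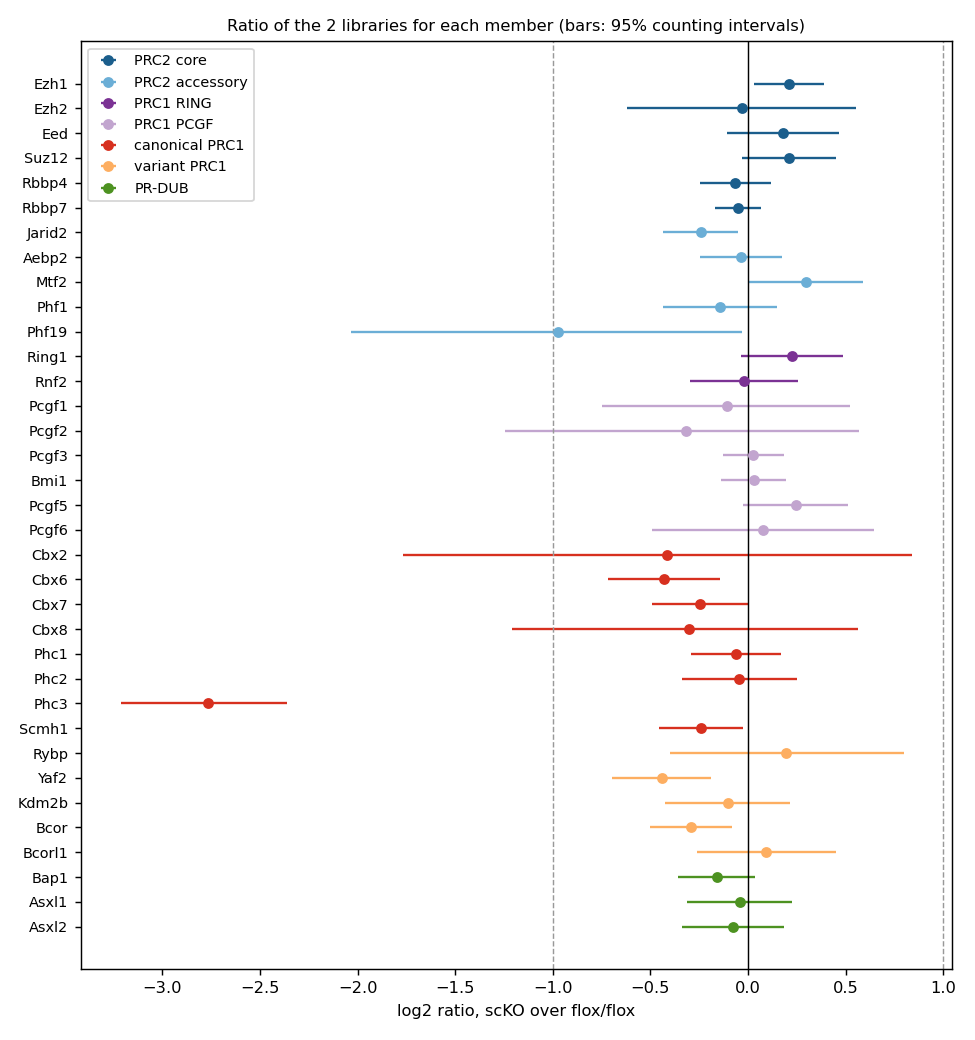
Log2 ratio of scKO over flox/flox for each of the 35 members, coloured by role, with 95% counting intervals as bars. The solid line marks equality and dashed lines a 2-fold difference; the interval of Phc3, from −3.21 to −2.36, lies wholly beyond the 2-fold line.

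Across the members, 8 intervals lay below 0 and 2 above, while 25 included 0. Over all tested genes 12.3% of intervals lay below 0 and 12.8% above, against 22.9% and 5.71% of the members. Those shares include Phc3, for which the list was chosen. Without it, 20.6% of the 34 other members lay below and 5.88% above. The split over the 35 members depended on the scaling: with total-count scaling 5 members lay below and 5 above (14.3% each), beside 9.70% and 16.6% of all genes. In either direction, 10 of 35 members (9 of 34 without Phc3) had an interval that excludes 0, where 25.1% of all tested genes did, a share near the background. The median log2 ratio was −0.06 over the 35 members and −0.06 without Phc3, compared with 0.002 over all tested genes, whose quartiles were −0.18 and 0.17. Outside Phc3, log2 ratios ran from −0.97 (Phf19) to 0.30 (Mtf2), and 30 of the 34 intervals left out a 2-fold difference in either direction.

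**Figure D4:**
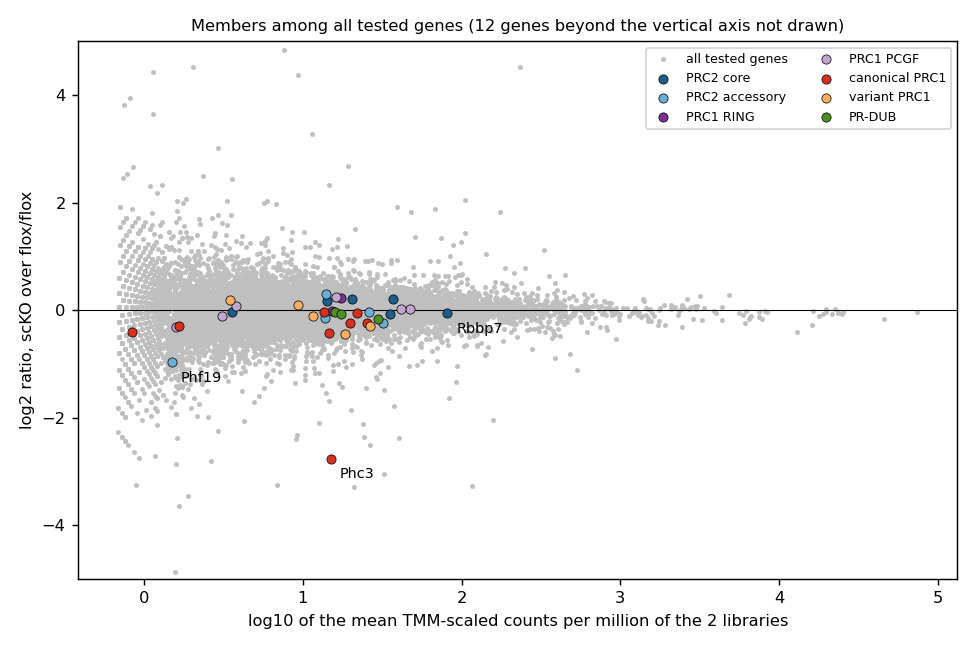
Log2 ratio of scKO over flox/flox against the log10 mean CPM for all 12662 tested genes (grey) and the 35 members (coloured by role). Apart from Phc3 at −2.76 and Phf19 at −0.97, the members lie between −0.44 and 0.30. The 12 genes beyond a log2 ratio of 5 in either direction are not drawn.

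Levels between genes are compared only per length. By deposited FPKM, Rbbp7 was the highest member in both libraries, at 18.8 in flox/flox and 18.6 in scKO, and the median member stood at 2.03 and 1.89. Phf19 and Cbx2 were the lowest pair in both libraries, Cbx2 at 0.213 and 0.162 and Phf19 at 0.236 and 0.121. Phc3 ranked 24 of 35 in flox/flox, with an FPKM of 1.23, and 33 of 35 in scKO, with 0.185, between Pcgf2 at 0.275 and Cbx2. The length behind the FPKM equalled the summed distinct exons in GENCODE M21 to within 1% for 27 members. It was far shorter for Eed, Phf1, Pcgf6, Cbx6 and Pcgf5, the last at 1659 bp where the merged exons span 12629 bp. On the scale of CPM per kilobase of merged exons Pcgf5 ranked 25 in flox/flox, in place of 2 by FPKM, so the levels of these 5 relative to other genes are not settled here. Ranks of other members also depended on the length used. In flox/flox Mtf2 ranked 27 by FPKM and 19 per kilobase of merged exons, Phc1 15 and 8, and Ring1 11 and 5. Rbbp7 ranked 1 and Phc3 24 on both scales in flox/flox.

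Partner proteins of PRC1 and PR-DUB were measured as a separate list of 24 genes. In it 4 intervals lay above 0 and 4 below (5 and 3 with total-count scaling). That is 16.7% each way with TMM, beside 12.8% above and 12.3% below over all tested genes. The median log2 ratio of the list was 0.02. Mga, the scaffold of the PCGF6 form of variant PRC1, was the single gene of this list that was 2-fold apart, with 608 flox/flox counts against 240 scKO counts (log2 ratio −1.29, −1.51 to −1.07). Its complex partners differed less: Max, its dimerisation partner, had 268 and 315 counts (0.28, 0.04 to 0.52), and E2f6 1887 and 2100 (0.21, 0.12 to 0.30). L3mbtl2, with 81 and 76 counts, and Pcgf6 had intervals that include 0. Auts2, which joins the PCGF3 and PCGF5 complexes, had 75 and 131 counts (0.85, 0.44 to 1.29), and its partner Fbrs 256 and 168 (−0.56, −0.85 to −0.27). Hdac1, a histone deacetylase gene, had 56 and 75 counts, with an interval that includes 0.

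Enzymes that oppose Polycomb showed small differences or none beyond counting error. Of 4 genes for erasers of the Polycomb marks, the H3K27 demethylase genes Kdm6a, with 248 and 185 counts (log2 ratio −0.37, −0.65 to −0.09), and Kdm6b, with 545 and 457 (−0.20, −0.39 to −0.02), had intervals below 0 with TMM, and Kdm6a alone with total-count scaling. The H2A deubiquitinase genes Usp16 (0.07, −0.10 to 0.25) and Mysm1 (−0.20, −0.49 to 0.09) had intervals that include 0. Over all tested genes 12.3% of intervals lay below 0 and 12.8% above with TMM. In the Trithorax and COMPASS list, which covers the methyltransferases that mark active genes at H3K4 and their cofactors, all 15 intervals included 0. The median of that list was 0.002, or −0.007 with DESeq2 scaling. Its extremes were Ash2l, with 334 and 279 counts (−0.21), and Men1, with 88 and 103 (0.28), followed by Kmt2b, with 459 and 397 (−0.16), and Setd1b, with 194 and 170 (−0.14).

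Hox genes are classical Polycomb targets, and 21 of 39 reached 20 summed counts. Of these, 3 intervals lay below 0 (14.3%), 1 above (4.76%) and 17 included 0. Over all tested genes 12.3% lay below and 12.8% above. The median log2 ratio of the Hox genes was −0.18. Hoxc10, expressed in the hindlimb, had the most counts, 1146 in flox/flox and 1030 in scKO. The intervals below 0 were those of Hoxa13, with 83 and 41 counts (−0.96, −1.54 to −0.41), Hoxc11, with 141 and 95 (−0.52, −0.91 to −0.13), and Hoxa7, with 124 and 84 (−0.51, −0.93 to −0.10). Hoxc6 had 35 and 57 counts (0.75, 0.12 to 1.41). Hoxc8, with 31 and 18, and Hoxb6, with 18 and 11, had intervals that include 0. Among genes of cell cycle inhibitors that Polycomb can repress, Cdkn2a had 0 and 2 counts and Cdkn2b 9 and 11. A count of 0 allows up to 0.206 CPM in flox/flox, so Cdkn2a was near or below detection in both libraries. Cdkn1c had 288 and 265 counts (−0.07, −0.32 to 0.18), and Cdkn1a had 83 and 126 (0.65, 0.24 to 1.07).

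Mitotic transcripts were scarce. By FPKM the lowest members in both libraries were Cbx2, Phf19, Pcgf2, Cbx8 and Ezh2, with Phc3 among them in scKO. The 10 proliferation markers summed to 4.68 and 2.85 CPM, and 2 of them reached 20 summed counts. Mki67 had 18 and 4 counts and Mcm5 had 14 and 22. The part of dividing cells in the values of these members was not tested.

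The annotation gives some members overlaps that limit their counts, since the strand setting of the counting is not given in the sources used here. In GENCODE M21, 14 members share exon bases with another gene and 7 share over 5% of them. Phf1 shares 39.3% of its exon bases with its neighbours, among them Cuta, which had 300 and 309 counts. Rbbp4 shares 18.0%, chiefly with Gm26722 and Sync, the latter with 693 and 549 counts. Of the 10 members whose intervals excluded 0 with TMM, Mtf2 shares 6.93% with Tmed5, Cbx6 5.31% with Npcd and Cbx7 1.54% with Apobec3. The other 7, Phc3 among them, share none.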

How the data were processed

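The authors deposited whole-number counts for 34745 Ensembl genes and, per the file headers, FPKM values for each library. CASAVA, HISAT2 2.0.4, StringTie 1.3.0 and build GRCm38 are named in the submitters' processing notes. Annotation release, counting options, multi-mapped reads and strand are not given in the sources used here. Symbols were matched for 34267 genes. Library sizes were scaled by TMM (edgeR 4.0.16, R 4.3.3); log2 ratios used a prior count of 0.5, and folds the scaled counts without a prior. Ratio intervals are conditional binomial (Clopper-Pearson) and level intervals Poisson (scipy 1.17.1). The procedure was tested on simulated data. With 1 library per genotype no dispersion or p-value was computed. Loci and overlaps came from GENCODE M21, promoters from RefSeq. The members and lists were chosen with earlier results of these data known. Named in full are Cipc, members whose interval excluded 0 or whose ratio passed 1.5-fold, and up to 4 genes with the largest ratio per other list, cell type markers being given by counts and sums; further genes were named after their values were seen. Markers of macrophages, smooth muscle, Schwann cells and adipocytes were also listed: their median log2 ratios were 0.05, 0.10, 0.02 and 0.05, and 2 of them were 2-fold lower, Cnn1 of smooth muscle (18 and 4 counts) and Sox10 of Schwann cells (27 and 9).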

Additional observations from a re-analysis of the deposited data

How the results depend on the processing

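Of 115 recomputed values, 107 stayed within their interval or within 1.5 times the count, or had no interval to leave. The last holds for the median of the eraser genes, which ran from −0.21 to −0.11 (−0.20 in the main setting). Of the 115, only 1 value changed sign (the Trithorax median, −0.007 with DESeq2 scaling). They leave out members not named in full, of which Ezh2, Aebp2 and Rnf2 changed sign with total-count scaling. Their log2 ratios were −0.03, −0.04 and −0.02 with TMM and 0.005, 0.0008 and 0.02 with total-count scaling. The Phc3 log2 ratio ran from −2.77 (DESeq2 scaling) to −2.67 (prior count of 5) on counts. On the log2(FPKM + pseudocount) scale, which understates changes of low genes, it was −2.23 with a pseudocount of 0.1 and −0.91 with 1. With a pseudocount of 1 the median over members was −0.014 and that over Hox genes −0.07. Members 2-fold apart numbered 2 with DESeq2 scaling or a 1.5-fold threshold (Phc3 and Phf19) and 0 without Phc3. With 99% intervals 4 members excluded 0: Phc3, Yaf2, Cbx6 and Bcor, all lower. Total-count scaling moved the median of all tested genes by 0.038. No paired analysis was possible because each genotype had 1 library, and no replicate could be left out. Members with few counts, such as Cbx2, could hide a 2-fold difference at this depth.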
